A study of Mus musculus with 4 samples.

Results

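Genes of tight and gap junctions were described in induced hepatocyte-like (iHep) cells grown in 2D or 3D culture. They were chosen by name alone, as every noncontrol probe whose gene name in the scanner files is a claudin, a connexin, a scaffold gene of the Tjp family, occludin (Ocln), 1 of the 3 MARVEL domain genes, F11r or cingulin (Cgn). This gave 67 of 41174 probes and 48 of 27975 gene names, with 21 claudins, 18 connexins and 9 other genes. A probe that the files name Gje1 belongs to the connexin gene Gjc3 in the RefSeq table and was not matched by this rule. All cells were of strain C57BL/6 and, per the labels, derived from cells named MDFs, an abbreviation the sources used here do not explain. The design text names iHep-1 and iHep-2 as independent experiments. Each gave 1 array per culture, so every group had 2 arrays, and p-values measure the spread between them. In the main fit of 3D against 2D they take no account of which arrays share an experiment. The titles of the 2D arrays alone carry a plus sign, whose meaning is not given, so what it marks and the culture cannot be told apart.

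Tight junctions seal the space between neighbouring epithelial cells. Claudins form the seal or its ion pores, occludin and the MARVEL proteins join them, and the scaffolds encoded by Tjp genes and cingulin tie them to actin. Gap junctions are channels of connexins that let ions and small molecules pass from cell to cell. In liver, tight junctions separate bile canaliculi from blood, hepatocytes couple mainly through the connexins of Gjb1 and Gjb2, and Gja1 is the main connexin of fibroblasts and many other cell types.

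The probes on which the results turn are 60 bases long, and the first 30 bases of each are printed 5′ to 3′ in lower case to show what was measured, with positions of the whole probe in mouse build mm9. The Gjb1 probe (chrX:98579837-98579896), the Tjp3 probe (chr10:80736550-80736609) and the brighter Marveld3 probe (chr8:112477083-112477142) measured the members that were higher in 3D in both experiments.
Gjb1: catggggacccccttcacctggaagaggta
Tjp3: tagatgatcaccaggggctgatgggtcatg
Marveld3: ttgggaccatcaccgtatattcccgtacaa
The Cldn3 probe (chr5:135463179-135463238), both Cldn1 probes (chr16:26359010-26359069 and chr16:26357372-26357431) and the brighter Gjb2 probe (chr14:57717629-57717688) measured members that differed between the experiments.
Cldn3: tgtccaagccgaatggacaaagaaacctcg
Cldn1, brighter probe: aggattgacattaacgccttagactgttga
Cldn1, dimmer probe: ctctctcaaatgaggagttcctaaagctta
Gjb2: caagttgaaccattaccactatgccttatg
Gja1 was spotted 10 times per array (chr10:56109814-56109873), and Gja3 had 3 probes that differed in brightness, of which the brightest is shown (chr14:57653539-57653598).
Gja1: ctacacattaactcagaacttgtattctga
Gja3: catgtcagccaactaatcactatgaggatg
No member probe shared a run of more than 15 bases with a probe of another gene on the array. Whether a probe lies in a coding part or a UTR was not examined, since no mm9 annotation was used here.

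Levels are log2 of the background-corrected signal of a probe minus the 75th percentile of its array, so 0 is that percentile. Values are given for 2D and 3D of iHep-1 and then 2D and 3D of iHep-2, and levels of different probes are not compared. The 75th percentile lay between 399 and 616 intensity units, and 23061 to 24413 probes per array were well above background. Hepatocyte markers were bright on all 4 arrays, with all 7 tested markers well above background and a summed level of 10.44 to 11.43. All 6 bile duct cell markers were also well above background on every array. Of 8 fibroblast markers, Col1a1, Col3a1, Thy1 and Dcn did not pass the filter described next. The 4 that passed it were Vim (3.61 to 5.86), Pdgfra (2.15 to 2.91), Col1a2 (-3.67 to -2.33) and Pdgfrb (-7.82 to -0.89). Pdgfrb was dim in 3D of iHep-2. Of 7 endothelial markers only Cdh5 and Vwf passed it, and Cdh5 was dim on both 3D arrays. Of 6 intestinal markers 4 passed it, with Vil1 at 3.78 to 4.91 and Lgals4 at 2.61 to 4.51. The other 2 were Cdx2, at -0.83 to -0.08, and Cdh17, which was dim in iHep-1. Of 6 smooth and cardiac muscle markers 3 passed, Acta2 (1.68 to 2.22), Tagln (2.00 to 2.68) and Tnnt2 (-5.09 to -4.33). Of 6 keratinocyte markers 4 passed, with a summed level of -0.50 to 0.69. In these bulk samples, fewer cells of a type and less RNA per cell cannot be told apart.

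Of the 48 genes, 33 passed a filter that asked for a probe well above background on at least 2 of the 4 arrays, and 26 had such a probe on all 4. These were 13 of 21 claudins, 11 of 18 connexins and all 9 of the other genes. No probe of 10 genes was well above background on any array, among them Cldn5, Cldn16 and Gjd2. Cldn5 is the main claudin of endothelial cells, Cldn16 acts in the kidney, and Gjd2 is a connexin of neurons. The other 5 untested genes, among them Cldn19, Cldn22 and Gjc1, were well above background on 1 array by a given probe.

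**Figure D1:**
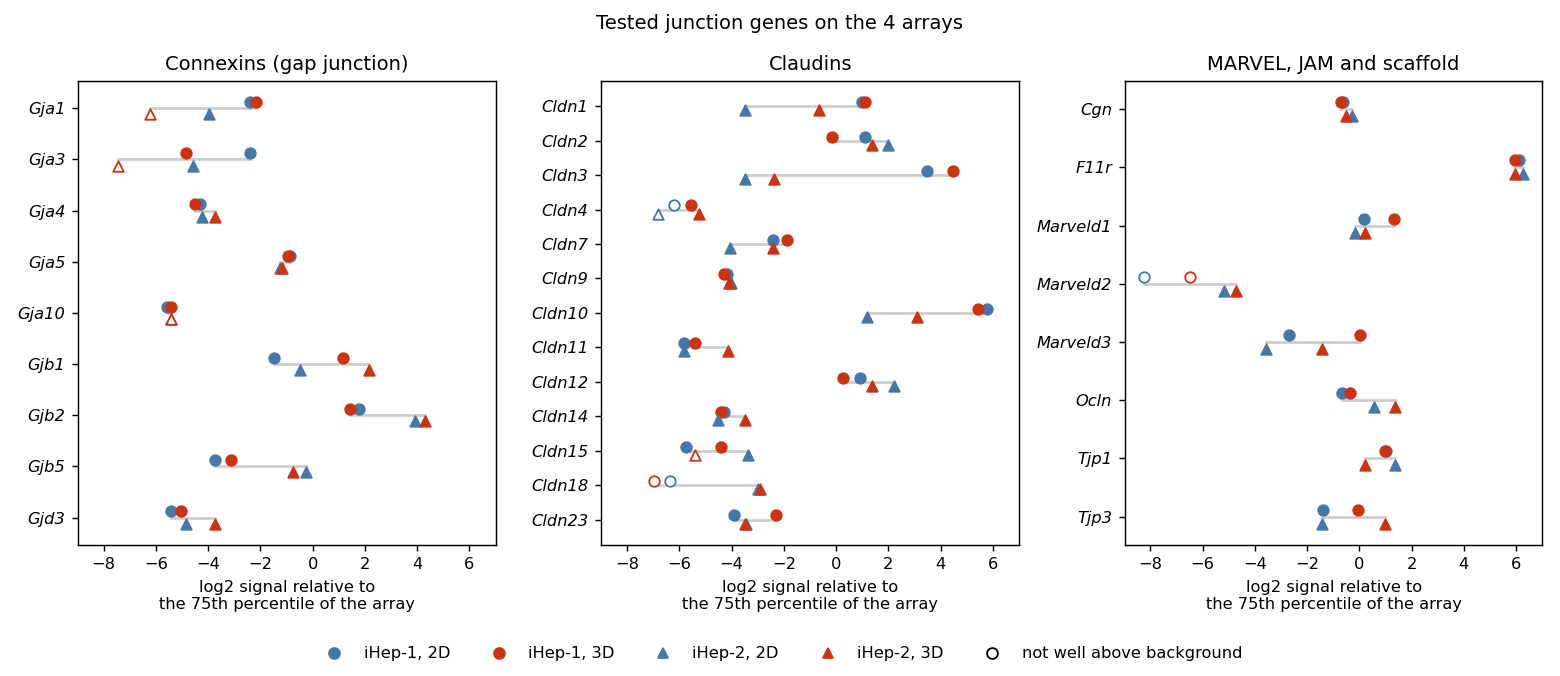
The level of 30 of the 33 tested junction genes on the 4 arrays, as log2 signal relative to the array's 75th percentile. Circles are iHep-1, triangles iHep-2, blue 2D and red 3D, open symbols were not well above background, and grey lines join the lowest and highest array. Cldn3, Cldn10 and Cldn1 are spread mainly by experiment, and Gjb1, Marveld3 and Tjp3 by culture.

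In 3D culture, Gjb1, Marveld3 and Tjp3 were at least 2-fold higher in both experiments, and Gja3 was measured as lower in both, in iHep-2 from a dim 3D value. No junction gene passed the test of 3D against 2D after adjustment over all 16451 tested genes (limma, two-sided, threshold of an adjusted p of 0.05), and neither did any other gene. The percentage of all tested genes called was thus 0.0. An unadjusted p under 0.05 was reached by 1157 genes in all (7.03%) and by 4 members (12.1%), Cldn4, Gjb1, Marveld3 and Tjp3. Of these, Cldn4 passed the filter only through its 3D arrays, so its part in this count is no result of its own. With the experiment as a block in limma, 2178 genes (13.2%) and 8 members (24.2%) reached an unadjusted p under 0.05. These 8 were the same 4 and Cldn2, Cldn3, Cldn12 and Gja3, and no gene passed after adjustment. With 2 arrays per group the differences below are descriptions of these experiments.

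By size, the 3 members at least 2-fold higher in both experiments made up 9.09% of the 33 tested, against 4.26% of all tested genes. The 1 member at least 2-fold lower in both, Gja3, made up 3.03%, against 2.13%, and it counts only through the exact value of a dim probe. In any size, 13 members (39.4%) were higher in 3D in both experiments, against 33.2% of all genes, and 7 (21.2%) were lower in both, against 33.0%. The 13 include Cldn4, which passed the filter only through 3D, and Marveld2, which was dim on both arrays of iHep-1. With each dim value raised to the lowest signal well above background on its array, the Marveld2 difference in iHep-1 was -0.075. Gja10, also among the 13, was dim in 3D of iHep-2, where its difference was 0.033. The median difference of the 33 genes was 0.15 for the mean of both experiments, 0.30 in iHep-1 and 0.091 in iHep-2, and that of all genes was 0.019. Scaling to spike-in controls in place of the 75th percentile moved the median of all genes to -1.08 and that of the members to -0.95, so every difference is read against the rest of its array. Under that scaling 6 of 33 members were higher in 3D on average, against 21 of 33. The same count over all genes was not taken, so this fall is no result about the members.

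**Figure D2:**
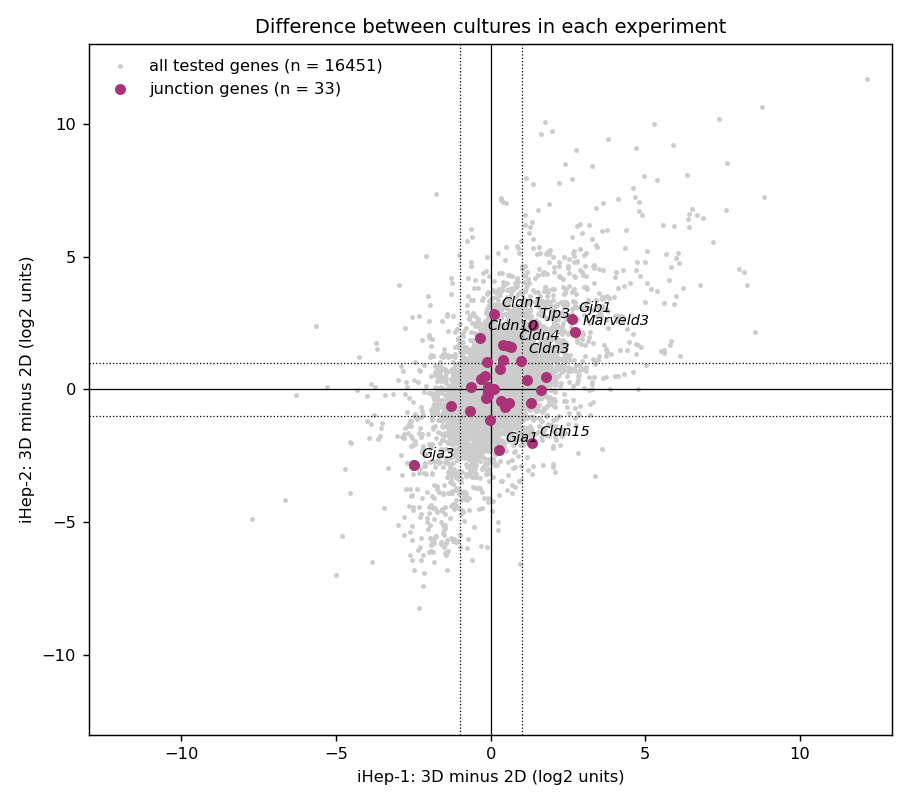
The 3D minus 2D difference in iHep-1 (horizontal) against that in iHep-2 (vertical), in log2 units scaled to the 75th percentile, for all tested genes in grey and the 33 junction genes in purple. Dotted lines mark 1 log2 unit; Gjb1, Marveld3 and Tjp3 lie beyond it at the upper right, Gja3 (dim in 3D of iHep-2) at the lower left and Cldn15 at the lower right.

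Gjb1 encodes the main connexin of hepatocytes. Its levels were -1.47 and 1.15 in iHep-1 and -0.48 and 2.16 in iHep-2. Both 3D arrays lay above both 2D arrays, as for 8 members in all (Cldn4, Cldn7, Cldn11, Gja10, Gjb1, Marveld1, Marveld3 and Tjp3) and 19.8% of all genes. Of the 8, Cldn4 passed the filter only through 3D, and Gja10 was dim in 3D of iHep-2. Both 3D arrays lay below for 3 members (F11r, Gja3 and Tjp1) and 21.5% of all genes. The Gjb1 difference was 2.62 in iHep-1 and 2.64 in iHep-2, and the mean difference was 2.63 ± 0.57 (SE, n = 2 per group, adjusted p = 0.684 by limma). Here and below, the SE is the one limma moderates over all tested genes, not that of these arrays alone. On the linear scale the signal went from 189 to 1320 intensity units in iHep-1 and from 442 to 1788 in iHep-2. The mean difference was 1.53 with spike-in scaling, with 0.95 in iHep-1 and 2.12 in iHep-2.

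Gjb2 encodes the other connexin of hepatocytes and showed no such pattern. Its levels were 1.76 and 1.44 in iHep-1 and 3.91 and 4.29 in iHep-2. The cultures differed by -0.32 and 0.37, and the experiments by 2.15 in 2D and 2.85 in 3D, so that the arrays grouped by experiment. A dimmer Gjb2 probe gave culture differences of -0.10 and 0.62 and had levels of -4.90, -5.00, -2.68 and -2.06, again higher in iHep-2.

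Gja1, the connexin of fibroblasts, was measured by 10 spots on each array, of which 8 to 10 carried no flag. Its levels were -2.41 and -2.15 in iHep-1 and -3.96 and -6.23 in iHep-2. The last, 3D of iHep-2, was not well above background. The SD between spots of an array was 0.032 to 0.12 on the 3 arrays that were well above background and 0.45 on the dim one. The cultures thus differed by 0.26 in iHep-1 and by -2.27 in iHep-2, the latter from a dim value. Of the 4 tested fibroblast markers, Pdgfrb was also lowest and dim in 3D of iHep-2 (-7.82), Pdgfra was highest there (2.91), and Col1a2 (-3.46) and Vim (3.90) were not at their lowest there. Summed over the 4 tested fibroblast markers the level was 4.11 and 5.08 in iHep-1 and 5.97 and 4.49 in iHep-2; their part in the result was not tested.

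Gja3, a connexin of the lens, had the lowest culture differences among the tested members. Its brightest probe had levels of -2.38 and -4.85 in iHep-1 and -4.59 and -7.44 in iHep-2, where the last was not well above background. The differences were -2.47 and -2.85, with a mean of -2.66 ± 1.29 (SE, n = 2 per group; adjusted p = 0.699 by limma). With the dim value raised to the lowest signal well above background on its array, the difference in iHep-2 was -0.96, under 2-fold. The mean difference was -0.44 with normexp background correction (adjusted p = 0.837 by limma) and -3.75 with spike-in scaling (adjusted p = 0.0105 by limma), where Gja3 was the only tested member called in any alternative for the cultures. A dimmer Gja3 probe, well above background on 1 array, differed by -1.70 and -1.05. The third probe was not well above background on any array and differed by -0.10 and 0.73.

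The connexins of stratified and vascular tissues showed small or mixed differences between the cultures. Gja4, a connexin of endothelium, stood at -4.31 and -4.51 in iHep-1 and at -4.24 and -3.75 in iHep-2. Gjb5, a connexin of skin and placenta, stood at -3.73 and -3.14 in iHep-1 and at -0.26 and -0.76 in iHep-2, and was thus higher in iHep-2 in both cultures. By their brightest probes, Gja5, Gja10 and Gjd3 had mean culture differences of 0.0044 to 0.75. By these probes Gja5 and Gja10 spanned less than 0.5 log2 units over the 4 arrays, and Gja10 was dim in 3D of iHep-2. The other Gja5 probes, elsewhere on chromosome 3, were well above background on at most 2 arrays. They differed by 0.89 and -0.12, by -0.12 and -1.62 and by -0.71 and -0.65. Gjc1, a connexin of smooth muscle and heart, was not tested. Its probes differed by -1.46 and -2.13 in iHep-1 and by -1.36 and -1.33 in iHep-2. Both were well above background only on the 2D array of iHep-1, so the differences in iHep-2 are between dim values.

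Among the claudins known from hepatocytes, Cldn1, Cldn2, Cldn3, Cldn12 and Cldn14 did not move together between the cultures. Cldn2, which forms a pore for cations and water, had levels of 1.12 and -0.15 in iHep-1 and 2.00 and 1.37 in iHep-2. It was lower in 3D in both experiments (-1.27 and -0.63), but the cultures overlapped. Cldn12 was likewise lower in both (-0.67 and -0.82), with levels of 0.93, 0.26, 2.20 and 1.38. Cldn14, a sealing claudin, differed by -0.12 and 1.03.

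Cldn3, a sealing claudin of many epithelia, had differences close to 1 log2 unit in both experiments. Its levels were 3.48 and 4.46 in iHep-1 and -3.47 and -2.39 in iHep-2. The culture differences were 0.98 and 1.08, or a mean of -0.069 with spike-in scaling. With the first of them just under 1 log2 unit, Cldn3 lay just outside the count of members at least 2-fold higher in both experiments, and Tjp3, with 1.36 in iHep-1, just inside. Cldn1, another sealing claudin, was nearly equal in both cultures of iHep-1 (1.0 and 1.13) and differed in iHep-2 (-3.49 and -0.66). Its dimmer probe gave culture differences of -0.14 and 3.27.

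Cldn7, a claudin of many epithelia, stood at -2.43 and -1.87 in iHep-1 and at -4.07 and -2.43 in iHep-2, with differences of 0.56 and 1.64 and a mean of -0.0016 with spike-in scaling. Cldn4 was dim on both 2D arrays and measured on both 3D arrays, at levels of -6.22, -5.55, -6.83 and -5.25. Its signal in 3D was brighter by at least 1.63-fold (limma, adjusted p = 0.684). For this bound the mean of the bright group was set against that of the dim group, where each dim array took the higher of its own value and its lowest signal well above background. Because Cldn4 passed the filter only through its 3D arrays, its direction is no result of its own.

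Cldn10, which forms paracellular ion channels in the kidney, had levels of 5.79 and 5.45 in iHep-1 and 1.17 and 3.11 in iHep-2. Its culture differences were -0.34 and 1.95. Cldn15, a cation pore of the intestine, differed by 1.34 in iHep-1 and by -2.02 in iHep-2, where its 3D value was not well above background. Of all tested genes, 0.802% differed by at least 1 log2 unit in opposite directions, and Cldn15 was the only member among them. Cldn9, Cldn11 and Cldn23 had mean differences of -0.079, 1.04 and 0.80.

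Marveld3, a MARVEL protein of tight junctions, had levels of -2.70 and 0.033 in iHep-1 and -3.58 and -1.44 in iHep-2. Both 3D arrays lay above both 2D arrays. Its differences were 2.73 and 2.15, with a mean of 2.44 ± 0.67 (SE, n = 2 per group; adjusted p = 0.684 by limma), or 1.34 with spike-in scaling. A further Marveld3 probe, at chr8:112483620-112483679, gave 2.88 and 1.91. Marveld3 was the only member at least 2-fold higher in both experiments under every scaling tried, among the 75th percentile, spike-in controls, quantile and the authors' table. With spike-in scaling it lay just inside in iHep-1 (1.06), and Gjb1 just outside (0.95).

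Marveld2, tricellulin, which seals the points where 3 cells meet, was measured only in iHep-2. Its levels were -8.26 and -6.47 in iHep-1, neither well above background, and -5.18 and -4.72 in iHep-2. Marveld1 differed by 1.18 and 0.37, and its dimmer probe by 0.67 and 0.10. Ocln had levels of -0.67 and -0.37 in iHep-1 and 0.57 and 1.34 in iHep-2, and both of its probes were higher in 3D in both experiments (0.30 and 0.77 for the brighter, 0.52 and 0.95 for the dimmer). With spike-in scaling Ocln and Marveld1 had mean differences of -0.56 and -0.33.

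The scaffold Tjp3 had levels of -1.41 and -0.050 in iHep-1 and -1.45 and 0.97 in iHep-2. The 3D arrays were above the 2D arrays, by 1.36 and 2.42, with a mean of 1.89 ± 0.43 (SE, n = 2 per group; adjusted p = 0.684 by limma), or 0.79 with spike-in scaling, under which the direction turned in iHep-1 (-0.31) and stayed in iHep-2 (1.89). The related scaffold Tjp1 did not share this. Tjp1 stood at 1.0 and 0.99 in iHep-1 and at 1.37 and 0.23 in iHep-2, and its second probe gave the same differences within 0.1 log2 units (-0.02 and -1.14 against -0.08 and -1.16). Cgn differed by -0.081 and -0.23, and F11r, the junctional adhesion molecule of epithelia, by -0.16 and -0.31 from a level near 6 on each array (5.95 to 6.28).

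**Figure D3:**
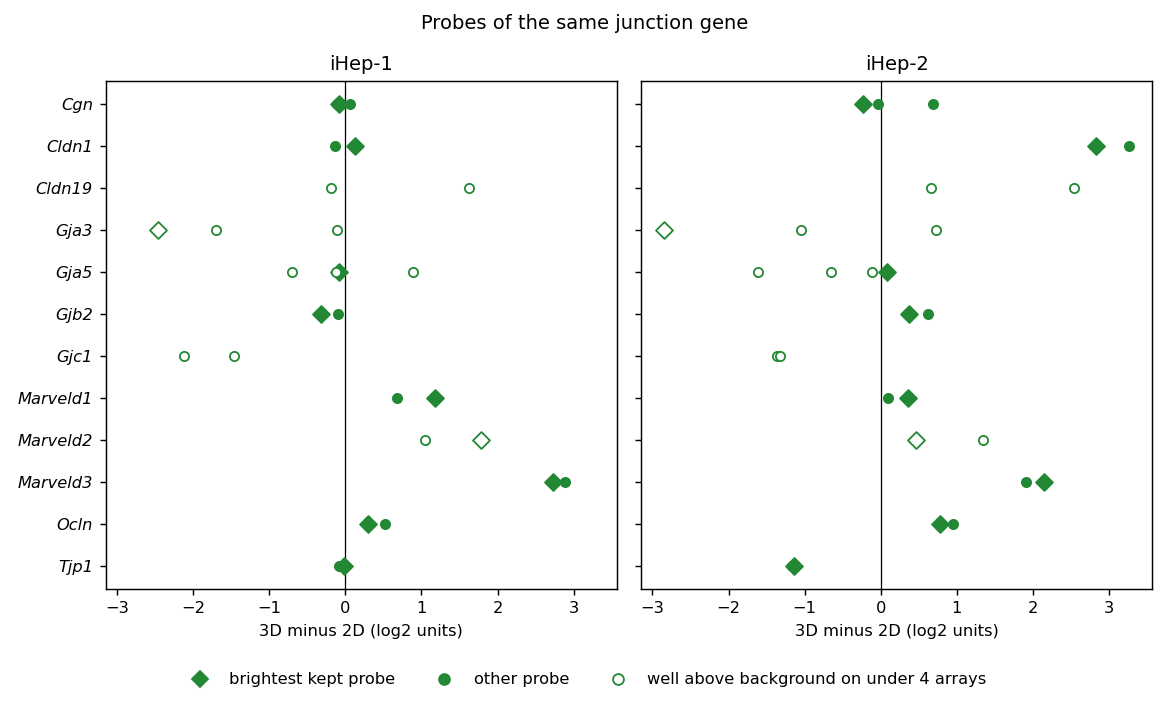
The 3D minus 2D difference of each probe, in log2 units, for junction genes shown here that have more than 1 probe, in iHep-1 (left) and iHep-2 (right). Diamonds are the brightest kept probe and circles the others, and open symbols were well above background on fewer than 4 arrays; the Marveld3, Cldn1, Tjp1 and Ocln probes lie close together, while those of Gja3 and Gja5 are spread.

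**Figure D4:**
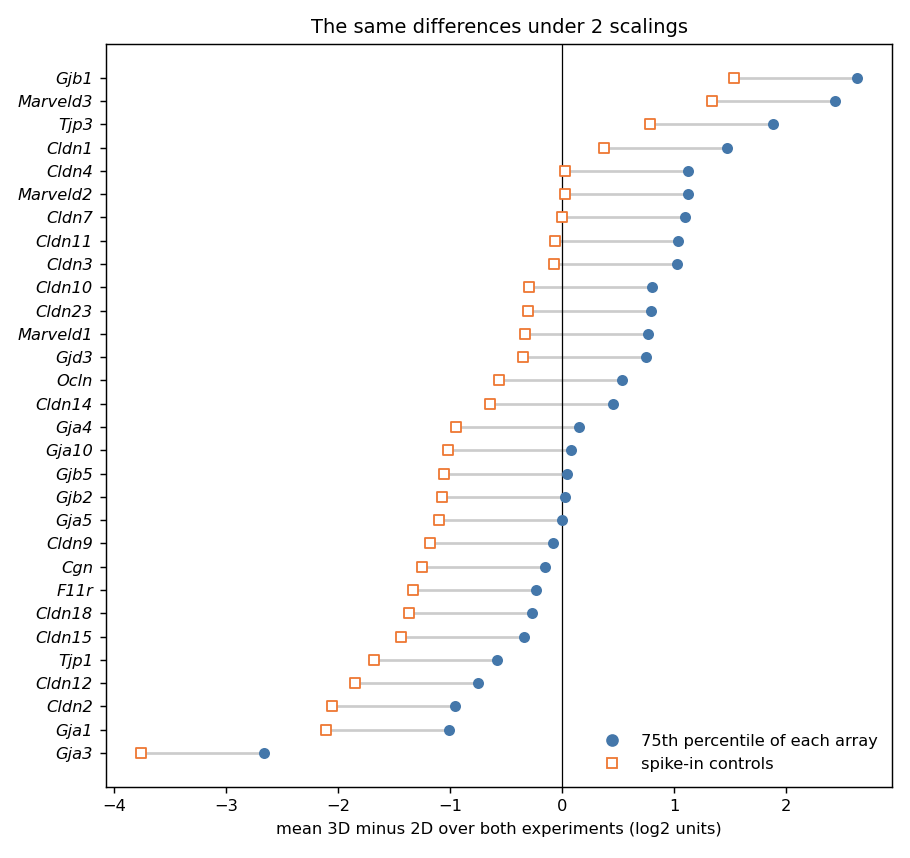
The mean 3D minus 2D difference of 30 of the 33 tested junction genes over both experiments, in log2 units, with each array scaled to its 75th percentile (circles) or to its spike-in controls (squares). Gjb1 moves from 2.63 to 1.53 and Gja3 from -2.66 to -3.75, and the number of plotted genes above 0 goes from 20 to 6. The median of all tested genes moves from 0.019 to -1.08.

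Between the experiments, the junction genes differed by more than between the cultures. Cldn3, Cldn10 and Cldn1 were lower in iHep-2 in both cultures, and Gjb2, Gjb5, Cldn18 and Ocln were higher in it. In all, 11 of the 33 tested members (33.3%) were at least 2-fold apart with 1 sign in 2D and in 3D, against 10.9% of all tested genes and against 4 members (12.1%; 6.38% of all genes) that did so between cultures. Of the 11, 6 were higher in iHep-2 (18.2%, background 5.12%) and 5 lower (15.2%, background 5.75%). The 6 include Cldn18 and Marveld2, which passed the filter only through iHep-2. With its dim values raised as above, Marveld2 differed by 0.80 in 2D, under 2-fold, and by 1.34 in 3D. The 5 include Gja3, whose difference in 3D is -0.71 with its dim value raised in the same way. The mean difference between experiments was larger in size than that between cultures for 20 of 33 members (60.6%) and for 49.7% of all genes. Both iHep-2 arrays lay above both iHep-1 arrays for 12 members (19.0% of all genes) and below for 6 (22.6% of all genes). The count of at least 2-fold differences was 4 higher and 3 lower with normexp background correction (12.1% and 9.09% of members, 2.73% and 2.58% of all genes). When only probes measured on every array were kept it was also 4 and 3, of 26 members (15.4% and 11.5%, against 3.90% and 3.70% of all genes).

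**Figure D5:**
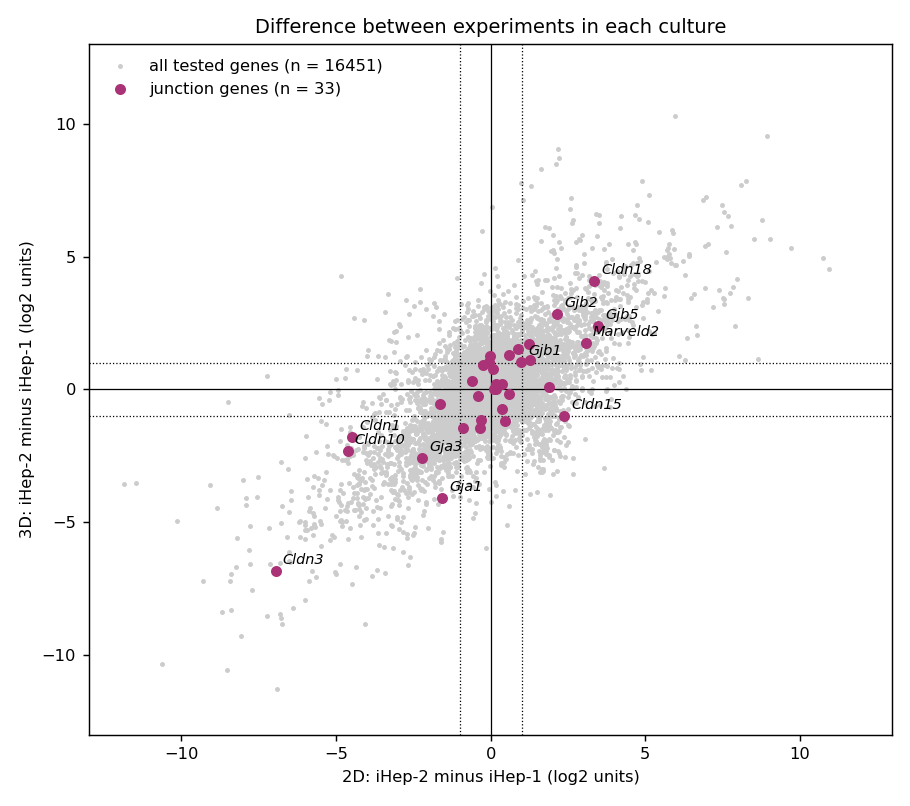
The iHep-2 minus iHep-1 difference in 2D (horizontal) against that in 3D (vertical), in log2 units scaled to the 75th percentile, for all tested genes in grey and the 33 junction genes in purple. Dotted lines mark 1 log2 unit. Cldn3 lies at -6.95 and -6.85, and Cldn18, not well above background in iHep-1, at 3.34 and 4.06.

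Cldn3 showed the largest difference between the experiments among the tested members. The difference was -6.95 in 2D and -6.85 in 3D, or -6.90 ± 0.56 (SE, n = 2 per group), with all 4 arrays well above background. Its signal was 5856 and 13096 intensity units in iHep-1 and 55.6 and 76.2 in iHep-2. Over all genes limma called 54 (0.328%) between the experiments and no member, and Cldn3 missed the threshold with an adjusted p of 0.0521. With culture as a block limma called 303 genes (1.84%), among them Cldn3 (adjusted p = 0.0399) and Cldn18 (adjusted p = 0.0453). Cldn18 passed the filter only through iHep-2, so its call is no result of its own. Without any 1 of the 4 arrays no gene was called. Over 12 alternatives Cldn3 passed in 6, with an adjusted p from 2.86e-07 to 0.244.

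The neighbouring claudin gene on chromosome 5, Cldn4, differed between the experiments by 0.30 in 3D and was dim on both 2D arrays. Cldn1 differed by -4.49 in 2D and -1.79 in 3D (adjusted p = 0.349 by limma). Cldn10 differed by -4.63 and -2.34 (adjusted p = 0.186 by limma). Both differed less between the experiments in 3D than in 2D, which was not tested with 1 array per culture and experiment.

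Gja1 and Gja3 were the connexins lower in iHep-2 in both cultures, with differences of -1.56 and -4.08 for Gja1 and of -2.21 and -2.59 for Gja3, and with the 3D value of iHep-2 dim for each. Gjb2 was higher in iHep-2 by 2.15 and 2.85 (mean 2.50 ± 0.29, SE, n = 2 per group; adjusted p = 0.0758 by limma) and passed in 1 of 12 alternatives, normexp background correction. Gjb5 was higher by 3.47 and 2.38 (adjusted p = 0.0807 by limma). Cldn18, a claudin of stomach and lung, was not well above background in iHep-1 and was at least 8.35-fold brighter in iHep-2 (adjusted p = 0.053 by limma), at levels of -6.34, -6.98, -3.00 and -2.91. Marveld2 was at least 2.10-fold brighter in iHep-2 as a mean over both cultures (adjusted p = 0.295 by limma). Cldn18 and Marveld2 passed the filter only through iHep-2, so their direction is no result of its own. Ocln was higher in iHep-2 by 1.24 and 1.72, and Cldn12 by 1.27 and 1.12.

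The 33 members correlated more closely between the 2 cultures of 1 experiment (r = 0.955 in iHep-1 and 0.906 in iHep-2) than between the experiments in 1 culture (r = 0.781 in 2D and 0.806 in 3D). Over all 16451 genes the order was the same, with r = 0.970 and 0.939 within experiments and 0.933 in each culture between them. These values are across genes, which are not independent replicates, and arrays of 1 experiment share their cells. Markers of bile duct cells also differed by experiment in 2D: Krt19 stood at 1.26 in iHep-1 and 4.11 in iHep-2, and Krt7 at 0.22 and 3.67. Summed over the 6 bile duct markers the level was 4.03 and 4.68 in iHep-1 and 5.56 and 4.93 in iHep-2, and the part of this in the junction genes was not tested.

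Genes of related structures were read from lists chosen with earlier results of these data known. None of their members passed the test of 3D against 2D, and the counts below stand beside 33.2% of all genes higher and 33.0% lower in both experiments. Of 15 junction genes of hepatocytes, all members of the set above, 7 were higher and 5 lower in 3D in both experiments, with a median of 0.46. The 7 include Marveld2, which was dim on both arrays of iHep-1. Among 18 further tight junction genes, 2 had higher and 13 had lower values in 3D in each experiment, with a median of -0.54. Among these, Igsf5, a junctional adhesion molecule, differed by -2.43 and -2.06, the former from a dim 3D value and -0.19 with that value raised as for Gja3, and Amotl2 and Amot, of the angiomotin scaffolds, by -1.64 and -2.73 and by -0.83 and -0.91. Of 13 polarity genes, 4 were higher and 5 lower in both, with a median of -0.033 that lay near that of all genes. Crb3, an apical determinant, differed by 0.88 and 0.73, and Prkcz, its kinase partner in the apical complexes, by 0.87 and 0.79. Pard6a, another gene of this list, went the other way, by -0.66 and -0.66.

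Among 11 adherens junction genes, 3 had higher and 3 had lower values in 3D in each experiment. Cdh1, the epithelial cadherin, stood at 3.03 and 3.69 in iHep-1 and 3.34 and 2.83 in iHep-2. Of 11 desmosome genes, 6 were higher and 1 lower in both, with medians of 1.26 in iHep-1 and 0.17 in iHep-2. The plakophilins Pkp1 and Pkp3 differed by 2.31 and 1.79 and by 1.41 and 0.93. Dsc2, a desmosomal cadherin, was not well above background in iHep-1 and at least 14.0-fold brighter in iHep-2 (adjusted p = 0.0603 by limma), through which alone it passed the filter. Panx1, the only pannexin tested, differed by 0.05 and -0.54.

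Of 12 tested regulators of junction genes, 6 were higher and 2 lower in 3D in both experiments. Grhl2, an activator of claudin genes and other epithelial genes, was dim on both 2D arrays, and its 3D signal was brighter by at least 3.51-fold (limma, adjusted p = 0.684). It passed the filter only through 3D, so its direction is no result of its own. Snai2, a repressor of epithelial genes that binds E-boxes, had levels of 3.56 and 2.09 in iHep-1 and 4.01 and 2.36 in iHep-2, so both 3D arrays lay below both 2D arrays. Elf3, an epithelial transcription factor, differed by 1.11 in iHep-1 and by 2.32 in iHep-2, where its 2D value was dim. Zeb2, another E-box repressor, was the only gene of these lists called between the experiments: it was at least 28.4-fold brighter in iHep-1 than in iHep-2, where it was not well above background (adjusted p = 0.0378 by limma). Zeb2 passed the filter only through iHep-1, so its direction is no result of its own. It was named after its values were seen, as were Dsc2 and the bile duct markers.

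Promoters were read from RefSeq sequence of build GRCm38.p6 to show the context of the members that moved with culture or experiment. Of the 48 genes, 35 were in the table, with 50 starts, and the 250 bases before each start were searched on both strands. The grainyhead-type motif AACCNGTT was in 3 of 50 windows (6.0%; 1.79% of all 32851 windows), those of Cgn, Cldn5 and Gjb6. The motif CACCTG, an E-box of Snail and ZEB factors, was in 12 of 50 (24.0%; 17.2% of all). The core GTTAAT of HNF1-type sites was in 6 of 50 (12%; 6.43% of all), and the HNF4-type motif CAAAGTCCA in 0 of 50 (0.384% of all). In the windows of Gjb1, Tjp3, Cldn1, Cldn3 and Gjb2, no match of 1 motif overlapped another. A match is a description of the letters only.

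Stretches of 30 bases around matches, with the motif in capitals, are shown for Gjb1 and Tjp3, which were higher in 3D, and for Cldn1 and Gjb2, which differed by experiment. Those of Gjb1 lie 48 bases before the second of its 4 listed starts (chrX:101377175-101377204, plus strand) and 168 bases before the fourth (chrX:101383552-101383581, plus strand). Those of Tjp3 lie 108 bases before the first of its 2 starts (chr10:81291672-81291701, minus strand) and 17 bases before the second (chr10:81291268-81291297, minus strand). Those of Cldn1 and Gjb2 lie 241 and 9 bases before their single starts (chr16:26372060-26372089 and chr14:57104703-57104732, both minus strand).
Gjb1, HNF1-type: ggggtggggctgGTTAATgtttctctgctt
Gjb1, E-box: gcgggcacagaaCAGGTGggtgcaggctgg
Tjp3, E-box before the first start: gtcacaaggggtCAGGTGtacagacaggga
Tjp3, E-box before the second start: ccacaaaccctccCACCTGcaggccggcct
Cldn1, HNF1-type: ttattattaGTTAATtacggagtgaaatga
Gjb2, E-box: gttaaaaggcgccgcggccaaCAGGTGtcc
The window of Cldn3, the member with the largest difference between experiments, held none of the 4 motifs and is printed whole (chr5:134985964-134986213, plus strand).
Cldn3: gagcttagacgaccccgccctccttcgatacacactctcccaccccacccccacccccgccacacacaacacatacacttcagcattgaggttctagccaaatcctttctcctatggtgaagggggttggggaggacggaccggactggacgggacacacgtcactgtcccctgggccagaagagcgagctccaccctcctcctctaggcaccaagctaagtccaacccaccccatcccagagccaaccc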

How the data were processed

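Total RNA was labelled with Cy3 and hybridised to 1-colour Agilent arrays of design 014868, 1 per sample, per the labels' protocols and the file headers. The headers give 1 slide and 1 scan time for all 4 arrays. The deposited scanner files hold linear intensity values of Agilent Feature Extraction, whose version is 10.7.1.1 per the file headers but 9.5.1.1 in the submitters' processing notes, with background already subtracted in the processed signal. The authors' series table also holds intensity values, whose column medians were 26.3, 26.3, 22.6 and 22.6. Over probes well above background, its log2 values rose with those of the processed signal with a slope of 0.988 to 1.01 (Pearson correlation of at least 0.9998 across probes), so its scale is linear and its direction the same. Its centring is unstated, and it served as an alternative.

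Processed signals were put on the log2 scale, and the 75th percentile of all noncontrol spots of an array was subtracted. Spots flagged as nonuniform or population outliers (72 to 85 per array) were left out, spots of 1 probe averaged, and no spot was saturated. Members kept the files' gene names; other probes were named through a RefSeq table by accession (24844 probes) or symbol (7855), or kept the files' name (8475). Each gene was represented by its brightest probe among those well above background on at least 2 arrays. Groups were compared with limma 3.58.1 (lmFit, eBayes) under R 4.3.3 (2 residual and 1.58 prior degrees of freedom), two-sided, with Benjamini-Hochberg adjustment over 16451 genes.

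The design text ties equal replicate numbers to 1 experiment, which pairs the arrays, and across genes their deviations from the means of the groups had r = 0.66. Data for 3D against 2D with 16451 genes were simulated, as 1 set per spread that held changes of both sizes. Their noise was independent between arrays, unlike the paired arrays here. At the real spread limma recovered 0 of 100 genes given a change of 2 log2 units and 49 of 100 given 6, with 0 false calls. At 0.1 times the real spread it recovered 91 and 100, with 11 false calls in that set. The members and lists were chosen with earlier results of these data known. Genes were named where they were hepatocyte or other fixed junction genes, where they differed by at least 1 log2 unit in both experiments or both cultures, or where at most 3 per related list had the largest smaller difference. The 4 arrays limit the precision. The values of a few members are not reported here, though all counts and medians include them.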

Additional observations from a re-analysis of the deposited data

Results flagged for a closer look

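Cldn15 differed between the cultures in opposite directions in the 2 experiments, by 1.34 log2 units in iHep-1 and by -2.02 in iHep-2, so the difference of the differences was 3.36. It was not tested, since each experiment had 1 array per culture, and the 3D value of iHep-2 was not well above background.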

How the results depend on the processing

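Between cultures, spike-in scaling called 291 genes, among them 1 junction gene, Gja3 (-3.75), and the experiment as replicate block with an intensity trend and robust prior called 19 and no junction gene. The replicate block alone and the other alternatives run called 0 by limma, and the block changed no call of a junction gene. Between experiments the 54 calls became 403 with spike-in scaling, 126 with quantile normalization, 106 with normexp, 136 with the authors' table, 3 with the stricter filter that asks for all 4 arrays and 303 with culture as replicate block; leaving out any 1 of the 4 arrays gave 0 in both comparisons. With spike-in scaling 1 junction gene, Marveld3, kept a 2-fold higher value in 3D in each experiment (3.03%, against 1.02% of all genes). Gjb1 fell just short in iHep-1 (0.95). Junction genes 2-fold lower numbered 7 with spike-in scaling (21.2%, against 20.3% of all genes) and 0 with normexp (against 0.827%). They numbered 0 with the stricter filter (against 1.4%) and 2 without a filter (4.17%, against 1.49%). The members' median difference was -0.95 with spike-in scaling, 0.0016 with quantile normalization, 0.0013 with the authors' table and 0.42 with the stricter filter.

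Several mean culture differences changed sign, some from sizes near 1 log2 unit (Cldn3 1.03, Cldn7 1.1 and Gja1 -1.01 as reported). With spike-in scaling they were -1.07 for Gjb2, -0.95 for Gja4, -0.069 for Cldn3, -0.0016 for Cldn7, -0.64 for Cldn14, -0.56 for Ocln, -0.33 for Marveld1, -0.29 for Cldn10 and -1.06 for Gjb5. Gjb2 and Gjb5 stood at -0.018 and -0.014 with quantile normalization and at -0.020 and -0.016 with the authors' table. With normexp Gja1, Cldn18 and Gjb5 were at 0.019, 0.050 and -0.039, and with all probes averaged Cgn was at 0.051. Leaving out an array leaves groups of unequal experiments, and a lone array is assumed to vary like the other group. The lowest and highest values were then -1.40 and 1.45 for Gjb2, -3.05 and 1.03 for Gja1, -0.23 and 0.53 for Gja4, -1.70 and 1.78 for Gjb5, -0.77 and 3.72 for Cldn1, -2.45 and 4.51 for Cldn3, -1.51 and 3.12 for Cldn10, -1.53 and 0.84 for Cldn15, -2.30 and 1.76 for Cldn18, -0.32 and 1.39 for Ocln, -0.33 and 0.022 for Cgn, -0.41 and 2.66 for Marveld2, and 0.017 and 0.28 for the median of the members. The cause of these changes was not tested. Depth cannot be counted on arrays; 7 of the 33 tested genes were not well above background on all 4.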
